A study of Arabidopsis thaliana with 6 samples.

Results

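The CSLC genes of Arabidopsis thaliana were followed in root tips given the signalling peptide CLE25 or CLE10. A probe set of the array was counted as a member when the array's annotation gave it 1 gene alone and the symbol of that gene was CSLC, with or without a leading AT, followed by digits. Of the 22810 probe sets, 5 met this rule, each for another gene: CSLC4 (AT3G28180, listed as CSLC04), CSLC5 (AT4G31590), CSLC6 (AT3G07330), CSLC8 (AT2G24630, listed as ATCSLC08) and CSLC12 (AT4G07960). One group of root tips received chemically synthesized CLE25 and the other CLE10, each at 1000 nM for 12 h, with 3 arrays in each group. Seedlings of the wild-type accession Col-0 had been grown for 7 days in shaken liquid MS medium at 23 °C under continuous light, and root tips of 5 mm were taken. Untreated roots are not analysed here, and a difference is therefore between the peptides and not a response to either of them. Whether replicate arrays stand for separate cultures is not in the labels, and a p-value then covers no more than the spread among arrays, which can be technical.

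Xyloglucan is the main hemicellulose of the growing walls of most flowering plants and lies between and along the cellulose microfibrils. CSLC proteins are Golgi glucan synthases of glycosyltransferase family 2, and they polymerise the beta-1,4-linked glucose backbone to which xylosyltransferases add side chains. Plants that lack all the CSLC genes make no detectable xyloglucan, and CSLC4 was the founding member for which glucan synthase activity was shown. CLE peptides are short secreted signals perceived by receptor kinases. CLE10 is known to inhibit protoxylem formation in roots and CLE25 to move from roots to shoots under dehydration. The study set out to find genes that differ between both treatments.

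The values are probe-set signals on a linear scale, and their trimmed mean was 500.05 on each of the 6 arrays, as a global scaling gives. The median signal lay between 157.4 and 171.8. Signals are compared between arrays for the same probe set and not between probe sets, since probes bind with unlike strength. In a bulk sample, fewer cells of a type and less RNA per cell cannot be told apart. Of the root markers with a probe set of their own, EXPA7 and EXPA18, expansins of root hairs, had signals of 1325 to 2596 and of 2615 to 4049 over the 6 arrays. The meristem factors BBM and JKD had 77.3 to 137.3 and 79.1 to 181.8, and LHCB4.1, a light-harvesting protein of green tissue, had 40.2 to 147.5. GSO1, a receptor kinase of the endodermis, had 532.5 to 660.5, and IRX10, a xylan synthase subunit of xylem vessels, had 259.9 to 318.6. The phloem sucrose transporter SWEET11 had 335.2, 382.7 and 178.2 with CLE25, and 677, 466.3 and 358.7 with CLE10. Its groups overlapped, since CLE25 replicate 2 lay above CLE10 replicate 3, and its log2 difference CLE25 minus CLE10 was -0.76 ± 0.27 (limma adjusted p = 0.9995, and adjusted p = 0.423 with the replicate number as a block). Without the block, SWEET11 was the one tested gene of the wall and marker lists with an unadjusted limma p under 0.05 (0.0177). With the block, SWEET11 (0.000572) and GER2, a gene of nucleotide sugar supply (0.0488), had one. The part of SWEET11 in the CSLC values was not tested. The listed root cap and epidermis markers had no probe set with 1 gene name here.

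No CSLC gene passed the test between the peptides. Root tips given CLE25 and those given CLE10 overlapped in signal for each of the 5 genes, and the ratio of the group means lay between 0.867 (CSLC6) and 1.03 (CSLC8). With limma over 13648 probe sets, 0 of 5 members passed an adjusted p of 0.05, beside 0% of all probe sets tested. At an unadjusted p under 0.05 there were 0 of 5 members, beside 4.21% of all tested. The arrays of the 2 groups did not overlap in 9.18% of all probe sets tested and in 0 of 5 members. With the replicate number as a block, again 0 of 5 passed at an adjusted p of 0.05, beside 0.00733% of all tested, and 0 of 5 had an unadjusted p under 0.05, beside 5.96%. Each fold change below is the log2 difference CLE25 minus CLE10 ± its standard error, for signals to which a pseudocount of 6.03 was added. All 5 members were bright enough to be tested, which needed a mean log2 value of 6.62, a signal near 92.3.

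**Figure D1:**
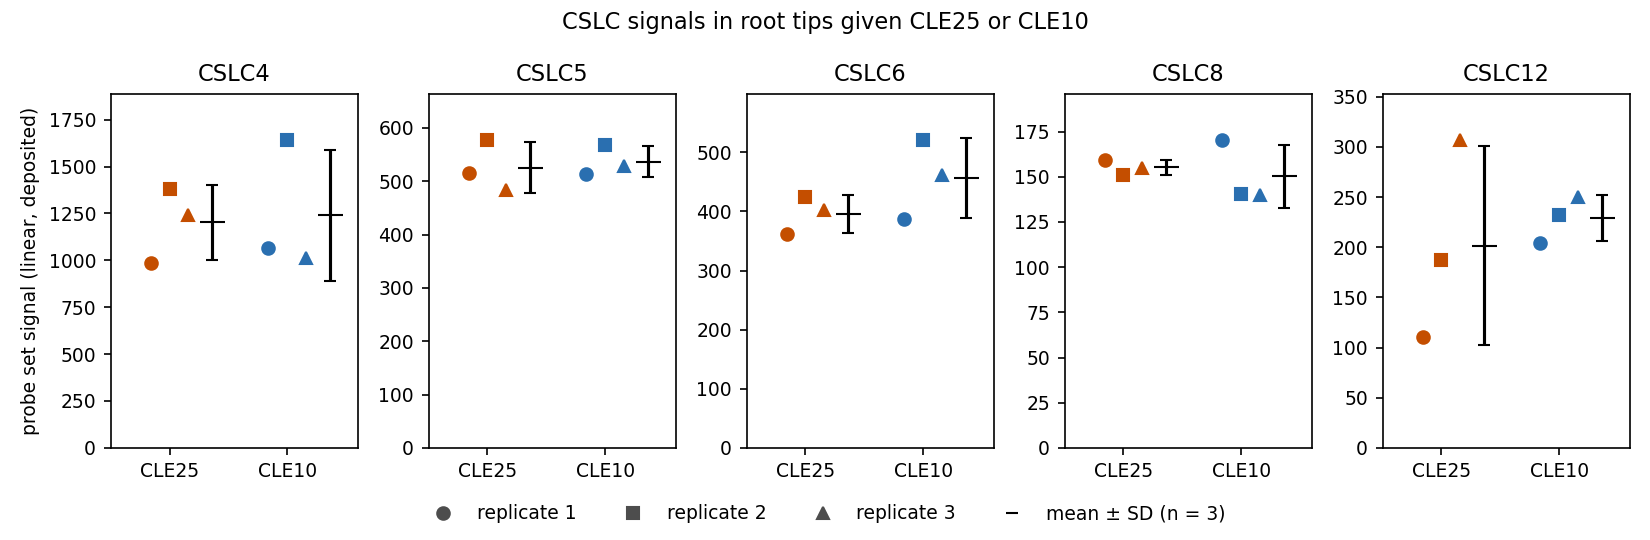
Probe-set signal (linear, as deposited) of each CSLC gene on every array, CLE25 at the left and CLE10 at the right of each panel. Symbols mark the replicate number in the labels, and the bar at the right of each group is the mean with the SD of 3 arrays. The groups overlap in every panel, and CSLC12 with CLE25 runs from 110.4 to 307.2.

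CSLC4, the member first shown to make a glucan chain, had signals of 988.3, 1382 and 1239 on the CLE25 arrays of replicates 1 to 3. On the CLE10 arrays it had 1064, 1643 and 1011. The lowest array was of CLE25 and the highest of CLE10, and 2 CLE25 arrays lay above 2 CLE10 arrays. The means were 1203 ± 199 with CLE25 and 1240 ± 351 with CLE10 (SD, n = 3 each). The log2 fold change was -0.02 ± 0.18 (adjusted p = 0.9995 in limma), and its 95% interval ran from -0.42 to 0.37. On the linear scale that interval is 0.75 to 1.29 times the level with CLE10. The sign turned on leaving out CLE25 replicate 1 (0.11) or CLE10 replicate 2 (0.20).

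CSLC5, another glucan synthase of the family, had the smallest residual spread of the 5. Its signals were 515.7, 577.7 and 483.3 with CLE25. With CLE10 they were 512.5, 568 and 529.2. The CLE25 arrays held both the highest and the lowest of the 6 values, which spanned 1.2-fold. The log2 fold change was -0.03 ± 0.12 (adjusted p = 0.9995 in limma), and its 95% interval ran from -0.29 to 0.22. Its residual SD of 0.105 on the log2 scale was above that of 20.1% of the probe sets tested. The sign turned without CLE25 replicate 3 (0.03) or CLE10 replicate 2 (0.01), both within 1 standard error of 0.

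CSLC6 had signals of 361.5, 424.1 and 401.6 with CLE25. With CLE10 it had 387.3, 521.3 and 460.8. The group means were 396 ± 31.7 with CLE25 and 456 ± 67.1 with CLE10 (SD, n = 3 each). Arrays overlapped because CLE10 replicate 1 lay under 2 of the CLE25 arrays. Within replicate numbers 1 to 3, CLE25 minus CLE10 was -0.10, -0.29 and -0.20 on the log2 scale. The log2 fold change was -0.20 ± 0.14 (limma adjusted p = 0.9995, unadjusted p = 0.179), and the 95% interval ran from -0.50 to 0.10. CSLC6 had the smallest unadjusted p of the members. The value stayed below 0 on leaving out each array, from -0.31 without CLE10 replicate 1 to -0.10 without CLE10 replicate 2.

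CSLC8 had signals of 159.2, 151.2 and 155 with CLE25, which differed by at most 1.05-fold. With CLE10 it had 170.5, 140.4 and 139.8, so that the CLE25 arrays lay inside the range of the CLE10 arrays. The log2 fold change was 0.05 ± 0.16 (adjusted p = 0.9995 in limma), and its 95% interval ran from -0.30 to 0.40. CSLC8 was the member whose mean was higher with CLE25, and the value was 0.0035 without CLE10 replicate 3.

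CSLC12 had the widest spread, with signals of 110.4, 186.9 and 307.2 on the CLE25 arrays. On the CLE10 arrays it had 204.5, 231.9 and 250.2. The CLE25 arrays held the lowest and the highest value of all 6 and differed by 2.78-fold among themselves, while the CLE10 arrays differed by 1.22-fold. The means were 202 ± 99.2 with CLE25 and 229 ± 23 with CLE10 (SD, n = 3 each). The log2 fold change was -0.29 ± 0.28 (limma adjusted p = 0.9995), and the 95% interval ran from -0.91 to 0.33. That interval reaches down to 0.534 times the level with CLE10, the widest bound among the 5 genes. The residual SD of 0.515 was above that of 98.9% of the probe sets tested. The value rested on single arrays: it was 0.07 without CLE25 replicate 1 and -0.64 without CLE25 replicate 3, with a limma adjusted p of 0.996 and of 1. Without CLE25 replicate 3 the unadjusted limma p was 0.0137, where 504 of 13648 probe sets had one under 0.05.

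**Figure D2:**
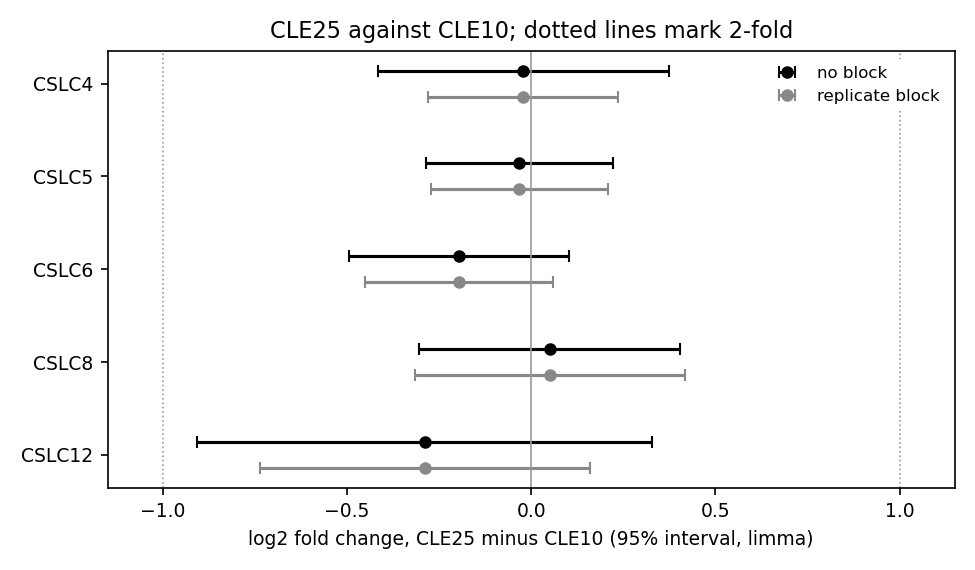
Log2 fold change of each CSLC gene, CLE25 minus CLE10, with its 95% interval from limma, without a replicate block (black) and with one (grey). Every interval holds 0 and lies inside the dotted lines at 2-fold, and the interval of CSLC12 is the widest. Variances are drawn toward those of other probe sets in limma, which narrows the interval of CSLC12.

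Across the family, 4 of 5 members had a lower mean log2 value with CLE25, beside 50.6% of all probe sets tested. None of the 5 passed the test. The median log2 fold change was -0.03 over the members and -0.0024 over all probe sets tested. The median size of the change, without its sign, was 0.05 over the members and 0.10 over all tested. A larger change than that of CSLC12 was seen in 8.10% of all probe sets. The 95% interval lay inside 2-fold either way for 5 of 5 members, beside 98.7% of all probe sets, and inside 1.5-fold either way for 4 of 5 members, beside 81.5%. The exception was CSLC12. In limma the variance of a probe set is drawn toward that of others, so this interval is narrower than the spread of CSLC12 alone would give. Without CLE25 replicate 3 its log2 fold change was -0.64 ± 0.22. The intervals therefore do not exclude a 2-fold change of CSLC12.

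**Figure D3:**
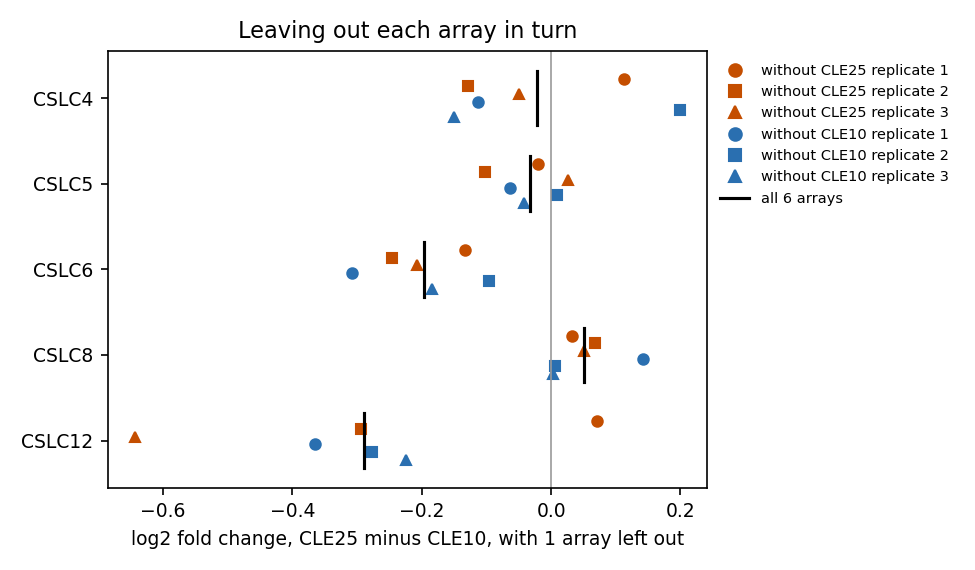
Log2 fold change of each CSLC gene, CLE25 minus CLE10, with all 6 arrays (black line) and with each array left out in turn (symbols, coloured by the peptide of the array left out). The values of CSLC6 stay below 0 and those of CSLC8 above 0, while those of CSLC4, CSLC5 and CSLC12 lie on both sides, and CSLC12 runs from -0.64 to 0.07.

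More of the spread of each member went with the replicate number in the labels, which has 2 degrees of freedom, than with the peptide, which has 1. In all 5 genes, the highest CLE25 array and the highest CLE10 array carried the same number, which held for 40.7% of all probe sets tested. It was replicate 2 for CSLC4, CSLC5 and CSLC6, which held for 16.7% of all tested. It was replicate 1 for CSLC8 and replicate 3 for CSLC12. Replicate number took 61.5% to 81.1% of the sum of squares over the 6 log2 values of a member, beside a median of 44.2% over all probe sets. Degrees of freedom alone would give 40% to replicate number and 20% to the peptide. The peptide took 0.166% in CSLC4, 3.38% in CSLC5, 6.84% in CSLC8, 10.6% in CSLC12 and 33% in CSLC6, beside a median of 11.3%. This pattern was looked for after the values were seen. In limma's F-test of replicate number, with the peptide in the model, the adjusted p was 0.351 for CSLC4, 0.448 for CSLC12 and up to 0.89 for the others, and 0% of all probe sets passed. At an unadjusted p under 0.05 were CSLC4 and CSLC12, beside 9.82% of all tested. What the replicate numbers stand for is not given in the labels.

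**Figure D4:**
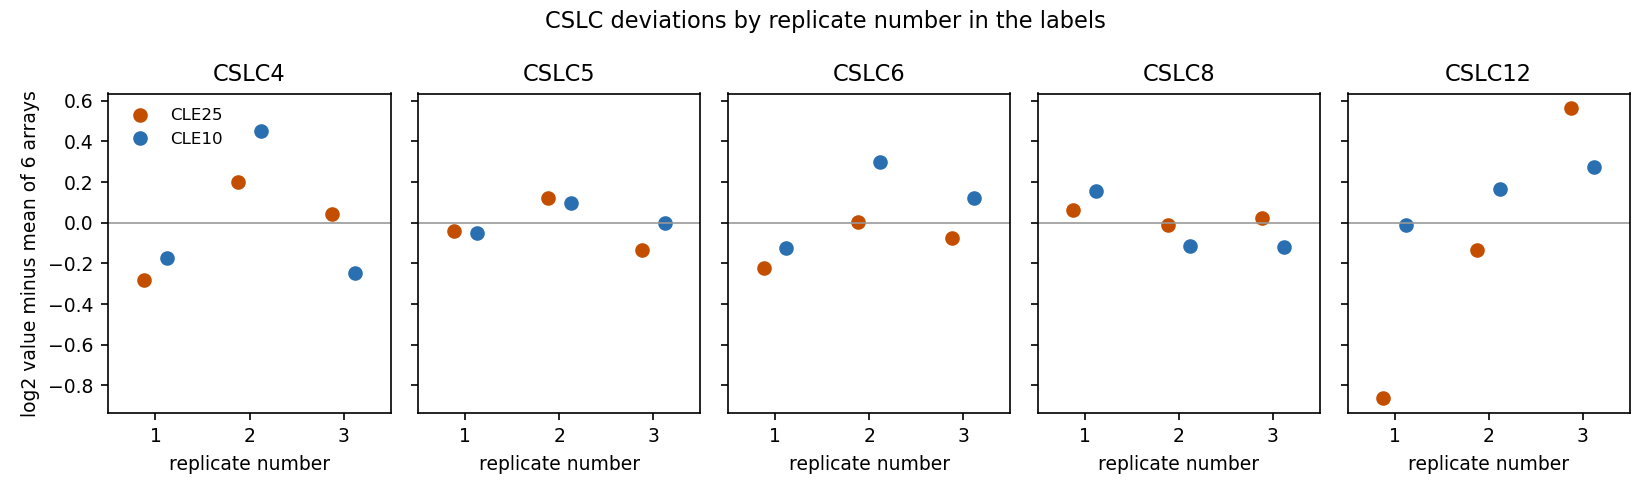
Log2 value of each CSLC gene minus its mean over the 6 arrays, set out by the replicate number in the labels, with CLE25 left of CLE10 at each number. In each panel the highest array of both peptides carries the same number, which is 2 for CSLC4, CSLC5 and CSLC6.

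The distance between members across the arrays depends both on how much each varied and on its pattern. The root mean square difference between the log2 values of a pair, each centred on its mean over the 6 arrays, was smallest for CSLC5 and CSLC6 at 0.137. It was 0.159 for CSLC5 and CSLC8 and 0.191 for CSLC4 and CSLC6. CSLC6 lay farther from CSLC8, at 0.257, though CSLC8 varied less than CSLC4 (SD of the 6 log2 values 0.106 and 0.288). The largest difference was 0.487, for CSLC8 and CSLC12, and CSLC12 was at least 0.385 from each other member. Genes with little spread lie close to one another by this measure, whatever their pattern. CSLC5 and CSLC8 are such a pair: replicate 2 was the highest number under both peptides for CSLC5, and replicate 1 for CSLC8.

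The same measure gave the genes with the nearest pattern among the 7450 tested probe sets that name 1 gene. For CSLC5 they were AT4G04320 at 0.0117 and AT1G55930 at 0.0239, where the median over all was 0.171. For CSLC8 they were AT4G00755 at 0.0253 and AT3G02910 at 0.0266. For CSLC6 they were AT1G04900 at 0.0333 and AT4G35987, a calmodulin N-methyltransferase, at 0.0367. For CSLC4 they were AT4G16180 at 0.0784 and AT3G59670 at 0.086, where the median was 0.3. AT4G16180 had 805.5, 1087 and 885.5 with CLE25, and 821.4, 1229 and 854.4 with CLE10, so replicate 2 was the highest under both peptides, as in CSLC4. For CSLC12 they were AT5G17350 at 0.158 and AT3G30160 at 0.168, and the probe set of AT3G30160 is of a class whose probes can match other transcripts. AT5G17350 had 44.6, 98.5 and 119.4 with CLE25, and 106.8, 109.5 and 109.9 with CLE10. Like CSLC12 it held its lowest and its highest value on CLE25 replicates 1 and 3. The nearest gene thus lay from 0.0117 (CSLC5) to 0.158 (CSLC12) away. Every gene has a nearest pattern among this many genes over 6 arrays. Whether these lie closer than those of other genes was not tested.

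Few other genes of wall polysaccharide synthesis had a probe set with 1 gene name and a symbol in the gene table that matched the list. No such probe set was found for the 9 genes of xyloglucan side chains, the 3 of its acetylation, the 3 of its trimming or the 9 cellulose synthases that were listed, which are not analysed here. One acetylation entry, AT3G03210, had a probe set but was not used, as the gene table gives it no symbol beyond its locus. Of 25 other cellulose synthase-like genes, 3 had one and 2 were tested, both with a lower mean with CLE25 (median log2 fold change -0.12), and 0 of 2 passed. CSLA3, of the family of mannan synthases, had 412.4, 539.5 and 408.6 with CLE25, and 566.1, 425.8 and 511.4 with CLE10. Its groups overlapped, with a log2 fold change of -0.14 ± 0.15. CSLD2, which is needed for normal root hairs, had 1623, 1436 and 1688 with CLE25, and 1857, 1613 and 1631 with CLE10, a log2 fold change of -0.10 ± 0.11. CSLA1 was too dim to be tested, at 2.24 to 27.8 over the 6 arrays.

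Among 24 genes of nucleotide sugar supply, GER2 was the one with such a probe set and a matching symbol. The loci AT2G30460 and AT1G06890 had a probe set but no symbol that matched the list, and were not used. GER2 encodes an epimerase-reductase of GDP-fucose synthesis, and fucose ends the longest xyloglucan side chains. Its signals were 1840, 2138 and 1474 with CLE25, against 1828, 2372 and 2513 with CLE10, and the log2 fold change, -0.30 ± 0.15, did not pass (limma adjusted p = 0.9995). The groups overlapped, and the lowest array was CLE25 replicate 3. With the replicate number as a block, the limma p of GER2 was 0.0488 unadjusted and 0.817 adjusted. Of the XTH enzymes, which cut and rejoin finished xyloglucan in the wall, 9 probe sets had 1 gene name. Of these, 8 were tested and 0 passed. At an unadjusted limma p under 0.05 were 0 of the 8, beside 4.21% of all probe sets tested. The mean was higher with CLE25 in 6 of the 8 and lower in 2, where 50.6% of all probe sets tested were lower. The median log2 fold change was 0.10, with a range from -0.11 (XTH19) to 0.49 (XTH33). The difference between the XTH and the CSLC genes was not tested.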

How the data were processed

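RNA of 6 root tip samples was labelled with biotin and measured on 1-colour Affymetrix arrays, per the labels. The deposited values are intensity values, 1 linear signal per probe set and array. They were made with GCOS 1.4 per the submitters' processing notes, with settings not stated. The global scaling would mask a shift shared by all transcripts.

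Of 22810 probe sets, 64 were controls, 13513 named 1 gene, 503 several and 8730 none. Symbols came from the platform's annotation and locus names from the TAIR10.1 gene table.

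Signals were analysed as log2(signal + 6.03), with the 10th percentile of the table as pseudocount. Probe sets under the 40th percentile of mean log2 value were left out, which kept 13648. The CLE25 arrays were tested against the CLE10 arrays with limma 3.58.1 (R 4.3.3), with a variance trend and Benjamini-Hochberg adjustment over all tested probe sets, at a threshold of 0.05, with no replicate block. The members and lists were chosen with earlier results of these data known. Of 106 list entries, 101 had a symbol that matched their locus. Of the 5 others, which were not used, 3 had a probe set. The genes named were every member, the 2 nearest patterns of each, and the listed wall genes and tissue markers with a probe set. The XTH genes were added later. The fit was also run on simulated data with independent normal errors and no effect of replicate number. That run cannot show how the fit behaves where same-numbered arrays share a deviation.

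Deviations of same-numbered arrays from their group means correlated at 0.076, 0.136 and 0.221 across probe sets. Those of unlike-numbered arrays correlated at -0.162 to 0.02, so each array went most with the array of its own number. Whether the numbers pair the samples cannot be decided from these values. The main test was planned without a block, and the fit with a block is given beside it. The alternatives were other pseudocounts, filters and normalization, no trend, array weights, a replicate block and leaving out each array. For arrays, their number limits the precision. No sequence was used.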

Additional observations from a re-analysis of the deposited data

How the results depend on the processing

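The count of probe sets past the threshold, 0 here, was 1 with a replicate block (limma), a probe set that is no CSLC gene, and 0 under the other 13 settings tried. On leaving out an array it was 0 to 0. With the block the CSLC adjusted p-values were 0.868 to 0.991, and the block changed no call of a member. What the numbers stand for is not in the labels. For CSLC6 the 95% interval with the block was -0.45 to 0.06. Over all settings the smallest adjusted p of a member was 0.802. Of the 68 member values under an alternative, 62 kept their sign. CSLC4 turned to 0.022 with array weights. On leaving out an array, CSLC4 ran from -0.15 to 0.20, CSLC5 from -0.10 to 0.026, CSLC6 from -0.31 to -0.10, CSLC8 from 0.0035 to 0.14 and CSLC12 from -0.64 to 0.0702, and the causes of the turned signs were not tested. With the filter at the 60th percentile CSLC8 and CSLC12 were too dim to be tested. The count at an unadjusted p under 0.05, added after the data were seen, was 575, and it was 980 with no filter (22746 tested), 362 with the filter at the 60th percentile (9099 tested) and 358 to 889 on leaving out an array (without CLE10 replicate 1 and CLE25 replicate 2).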
